A study of Mus musculus with 4 samples.

Results

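Oxidative phosphorylation is carried out by 5 protein complexes of the inner mitochondrial membrane, whose subunits are encoded partly in the mitochondrial genome and partly in the nucleus. The genes described here are protein-coding genes of GENCODE vM21 whose symbol follows the naming of subunits of complexes I to V, matched to the deposited tables by gene ID. The rule found 96 genes among 55487 gene IDs, of which 13 are mitochondrially encoded and 83 nuclear. By complex, the mitochondrial genes number 7 in complex I, 1 in complex III, 3 in complex IV and 2 in complex V. The nuclear genes number 37 in complex I, 4 in complex II, 8 in complex III, 16 in complex IV and 18 in complex V. A symbol is not proof of a subunit. Ndufa4 is counted with complex I by its name although its product sits in cytochrome c oxidase, and Atp5s and Cox7a2l belong to related factors. Atp5o stands for 2 gene IDs, of which 1 had no count in any library.

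The study measured RNA from primary cultured mouse astrocytes that were wild type for OASIS or OASIS deficient, each without treatment or after 1 h in doxorubicin at 1 µg/ml and 24 h of recovery. OASIS is the transcription factor encoded by Creb3l1, which is released from the endoplasmic reticulum membrane by cleavage, and doxorubicin is a topoisomerase poison that breaks DNA. All cells were grown in the same serum-containing medium, and libraries were made with SMART-Seq v4, a kit that does not keep the strand. Each of the 4 combinations is 1 library, so a comparison of 2 libraries has no replicate, and the age and sex of the animals and the deleted exons were not given in the sources used here.

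Complex I (NADH dehydrogenase) and complex II (succinate dehydrogenase) pass electrons to ubiquinone, complex III (cytochrome bc1) passes them on to cytochrome c, and complex IV (cytochrome c oxidase) reduces oxygen. Complexes I, III and IV pump protons, and complex V (ATP synthase) uses the gradient to make ATP. The mitochondrial genome is transcribed as long polycistronic RNAs that are cut into single mRNAs, so its mRNAs share their promoters, whereas each nuclear gene has a promoter of its own. In astrocytes, which are known for high glycolytic flux, the same complexes are present and are assembled from both sets of transcripts.

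The labels were checked first. Creb3l1 had 966 and 636 counts in the untreated and doxorubicin-labelled wild-type libraries and 260 and 235 counts in the deficient ones, so it was lower in both deficient libraries but not absent. Cdkn1a, the p53 target that encodes the cell cycle inhibitor p21, had 25804, 34221, 3204 and 3926 counts in the order wild type untreated, wild type doxorubicin, deficient untreated and deficient doxorubicin, an order kept in all 4-value sentences. Of 20 listed p53 targets, which DNA damage is known to induce, 17 had a doxorubicin over untreated log2 ratio above 0 in wild type (49.4% of all genes), with a median of 0.21. In the deficient pair 12 were above 0 (53.8% of all genes), with a median of 0.11. Of the 20, 0 were at least 2-fold higher in either genotype, and the libraries are called by their labels throughout. The sex chromosome genes differed by treatment label, so sex and treatment cannot be told apart here. Library totals ran from 17481188 to 22559613 counts.

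Several other gene groups differed by genotype label as much as the subunit genes did or more. In each genotype pair the deficient library had all 20 listed mitosis genes higher by 2-fold or more (median log2 ratio 3.57 untreated, 4.03 doxorubicin-labelled), and 18 of the 20 p53 targets lower by 2-fold or more. Of all genes compared, 9.79% (untreated pair) and 10.7% (doxorubicin-labelled pair) were at least 2-fold higher. At least 2-fold lower were 10.2% and 9.55%, and these shares apply to all 2-fold counts in this paragraph. Of the 12 astrocyte markers, all compared, 3 were at least 2-fold higher in each pair, and their summed level was 4201, 4019, 11647 and 10217 CPM (reads counted per 1e6, scaled between libraries). Summed levels were 476, 353, 1093 and 1093 CPM for 12 oligodendrocyte lineage markers, 238, 215, 415 and 443 CPM for 12 neuron markers, 1386, 1000, 1245 and 855 CPM for 12 microglia markers, and 389, 219, 336 and 297 CPM for 12 fibroblast and meninges markers, of which Slc22a6 had no count. Endothelium and pericyte markers summed to 30.8, 25.9, 14.4 and 13.6 CPM and 10 muscle markers to 3.72, 6.81, 15.5 and 9.15 CPM, with Tnnc2 at 0. At least 2-fold higher in the untreated and doxorubicin-labelled genotype pairs were 10 and 9 of the 12 oligodendrocyte lineage markers and 5 and 5 of the 9 neuron markers compared, with 1 and 2 neuron markers at least 2-fold lower. In bulk RNA, a different share of a cell type and a different amount of RNA per cell cannot be told apart, and the part of these differences in the values that follow was not tested.

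Abundance was compared between genes on the TPM scale (relative transcript abundance with a fixed library sum), which divides by length. The 96 genes made up 5.75%, 6.39%, 7.21% and 7.26% of all TPM, lowest in the untreated wild-type library and highest in the deficient ones. Of 96 genes, 90 had a mean of at least 1 CPM and entered the comparisons, namely all 13 mitochondrial genes and 77 of 83 nuclear ones. The other 6 IDs were Ndufa4l2, Cox6a2, Cox7b2, Cox8b, Cox8c and the silent copy of Atp5o.

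Mitochondrial mRNAs took the first 5 ranks by mean TPM among the 96 genes, and all 13 were within the first 44. Their median level was between 1672 and 1961 TPM in the 4 libraries, against 325 to 442 TPM for nuclear genes. mt-Co3, a core subunit of cytochrome c oxidase, had the highest mean, at 2958, 2976, 3991 and 4009 TPM, and its 2 deficient values stood above the wild-type ones. Atp5b, the catalytic beta subunit of ATP synthase, was the most abundant nuclear gene, at 2267, 2384, 2279 and 2460 TPM, with overlapping genotypes on this scale. mt-Cytb, the only mitochondrial subunit of complex III, had 2159, 2326, 2682 and 2759 TPM, and mt-Nd1 led complex I with 1672, 1721, 1952 and 1961 TPM. Complex II had the lowest median of nuclear genes in each library, and its highest gene, the iron-sulfur subunit Sdhb, had 252, 268, 312 and 323 TPM.

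Subunit transcripts were mostly higher in the library labelled OASIS deficient, in both treatment arms. Ratios are given as log2 of scaled CPM plus 1 CPM, deficient over wild type. In the untreated pair 86 of 90 genes had a ratio above 0, against 48.1% of the 15596 genes compared, and the median was 0.51 against -0.03 for all genes. At least 1.5-fold higher were 37 of the 90 genes, against 19.6% of all genes, and 7 were at least 2-fold higher, against 9.79%. A single gene, Cox6b2, was at least 1.5-fold lower (21.1% of all genes) and also at least 2-fold lower (10.2%). In the doxorubicin-labelled pair 75 of 90 ratios were above 0 (51.4% of all genes), the median was 0.27 (all genes 0.02), and 13 genes were at least 1.5-fold higher (20.7% of all genes), a share below the background. Cox6b2 alone was at least 1.5-fold and 2-fold lower there (18.9% and 9.55% of all genes). Most members thus differed by less than 2-fold in either pair. On the deposited TPM scale, where the median of all genes was -0.21 and -0.08 in the 2 pairs, the members' medians were 0.32 and 0.17.

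Taken over all complexes and without regard to length, nuclear and mitochondrial genes had similar medians. In the untreated pair the median was 0.52 for the 77 nuclear genes and 0.43 for the 13 mitochondrial ones, with medians of the counting bounds of 0.44 to 0.63 and 0.40 to 0.48. In the doxorubicin-labelled pair the medians were 0.26 and 0.27. These intervals are exact 95% bounds for the ratio of counts of each gene and cover counting error only, not the spread between cultures. Within complexes the mitochondrial and nuclear medians in the untreated pair were 0.23 and 0.55 (I), 0.51 and 0.55 (III), 0.56 and 0.49 (IV), and 0.65 and 0.57 (V). In the doxorubicin-labelled pair they were 0.09 and 0.19 (I), 0.34 and 0.24 (III), 0.37 and 0.11 (IV), and 0.36 and 0.42 (V). By library, the untreated wild-type library had the lowest scaled CPM of the 4 in 83 of the 90 genes, as it had in 27.3% of all genes. Both deficient libraries were above both wild-type libraries in 74 of 90 genes, against 31.2% of all genes, and below both in 4, against 30.8%.

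An additive model over the 4 libraries (edgeR quasi-likelihood, genotype and treatment labels, 1 residual degree of freedom) called 45 of 90 genes higher in the deficient libraries after Benjamini-Hochberg adjustment over all genes, against 12.6% of all genes tested, and 1 lower, against 10.6%. The other 44 did not pass. Of the called genes, 6 were among the 13 mitochondrial genes and 39 among the 77 nuclear ones. The test takes the 2 libraries of a genotype as replicates apart from the treatment label, so its p-values reflect no more than the spread between these 4 libraries, which may be technical. With a library left out, no residual degree of freedom remains for both labels, so the fits below hold the genotype label only. Their counts thus differ from the 45 and 1 through both the missing library and the missing treatment label. Without the untreated wild-type library the counts were 33 higher and 2 lower (13.6% and 10.1% of all genes), and without the doxorubicin-labelled wild-type library 60 and 1 (13.7% and 10.9%). Without the untreated deficient library they were 6 and 1 (4.03% and 3.51% of all genes), and without the doxorubicin-labelled one also 6 and 1 (3.21% for each).

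**Figure D1:**
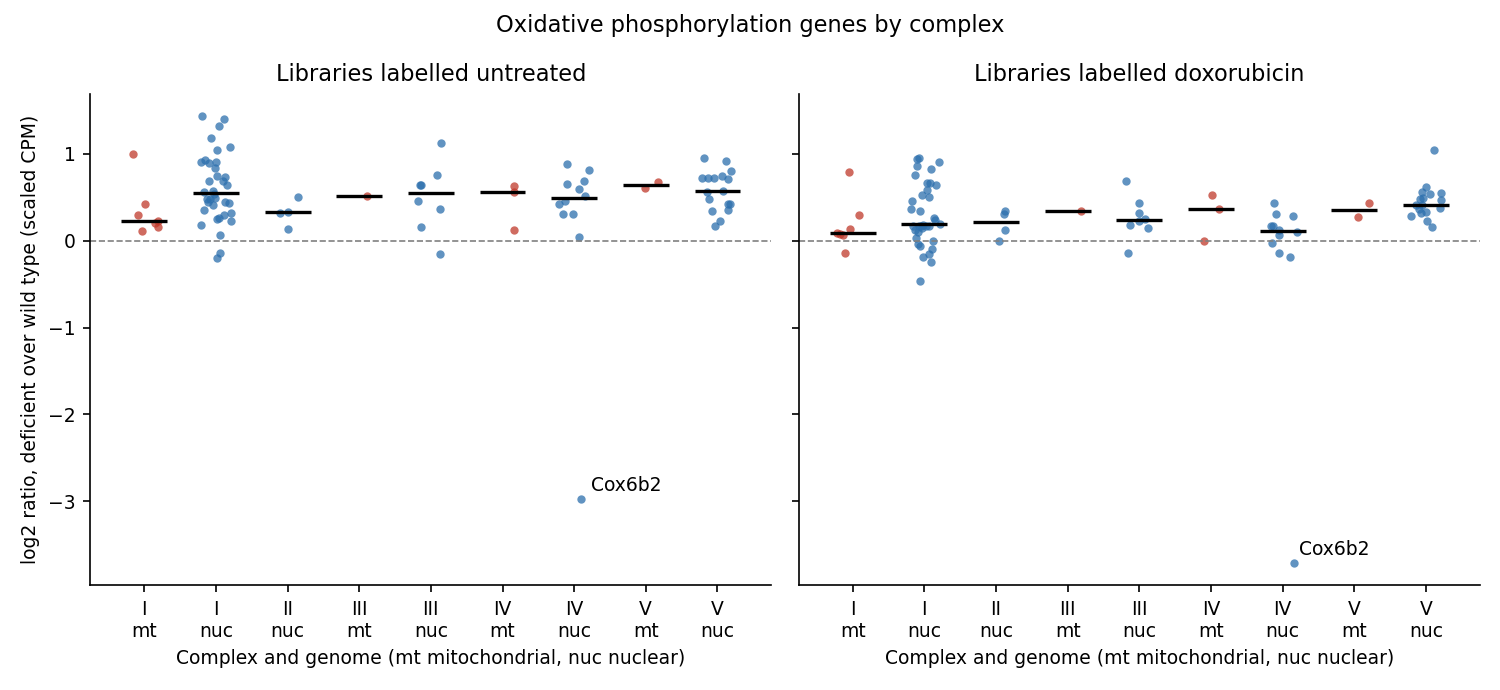
Each point is 1 of the 90 genes, placed by complex and genome (mt mitochondrial, nuc nuclear), with its log2 ratio of scaled CPM, deficient over wild type, in the libraries labelled untreated (left) and doxorubicin (right); bars are medians and the dashed line is 0. Most points lie above 0 in both panels, complex V has no nuclear gene below 0 in either (by TPM, Atp5a1 is at -0.02 in the untreated pair), and Cox6b2 lies at -2.98 and -3.71.

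Transcript length went with these ratios in all genes. Other protein-coding genes of up to 1000 bases had a median of 0.36 in the untreated genotype pair, and longer ones -0.05. In the doxorubicin-labelled pair these medians were 0.17 and 0.03. Subunit genes are short, since 53 of the 90 (58.9%) had transcripts of up to 1000 bases against 5.49% of the other protein-coding genes. The short members had a median of 0.61 in the untreated pair and the 37 longer ones 0.35, each above the other genes of that length class. When ratios were centred on the other protein-coding genes of the same length bin, an alternative chosen after seeing the data, the medians were 0.32 and 0.11 for nuclear genes and 0.09 and 0.11 for mitochondrial genes in the 2 pairs. The additive model with the same centring called 28 genes higher (12.4% of all genes) and 3 lower (11.0% of all genes), and 27 of the 28 were among the 45. Each gene was given the length of 1 annotated transcript, which may differ from the transcripts quantified. Ndufb2 (4371 bases) had 58.8 scaled CPM and 286 TPM in the untreated wild-type library, close to Ndufs6 (568 bases) with 57.0 and 269. The effect of this choice of length on centred values was not tested. The part of RNA quality or library preparation in the length trend was not tested.

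**Figure D2:**
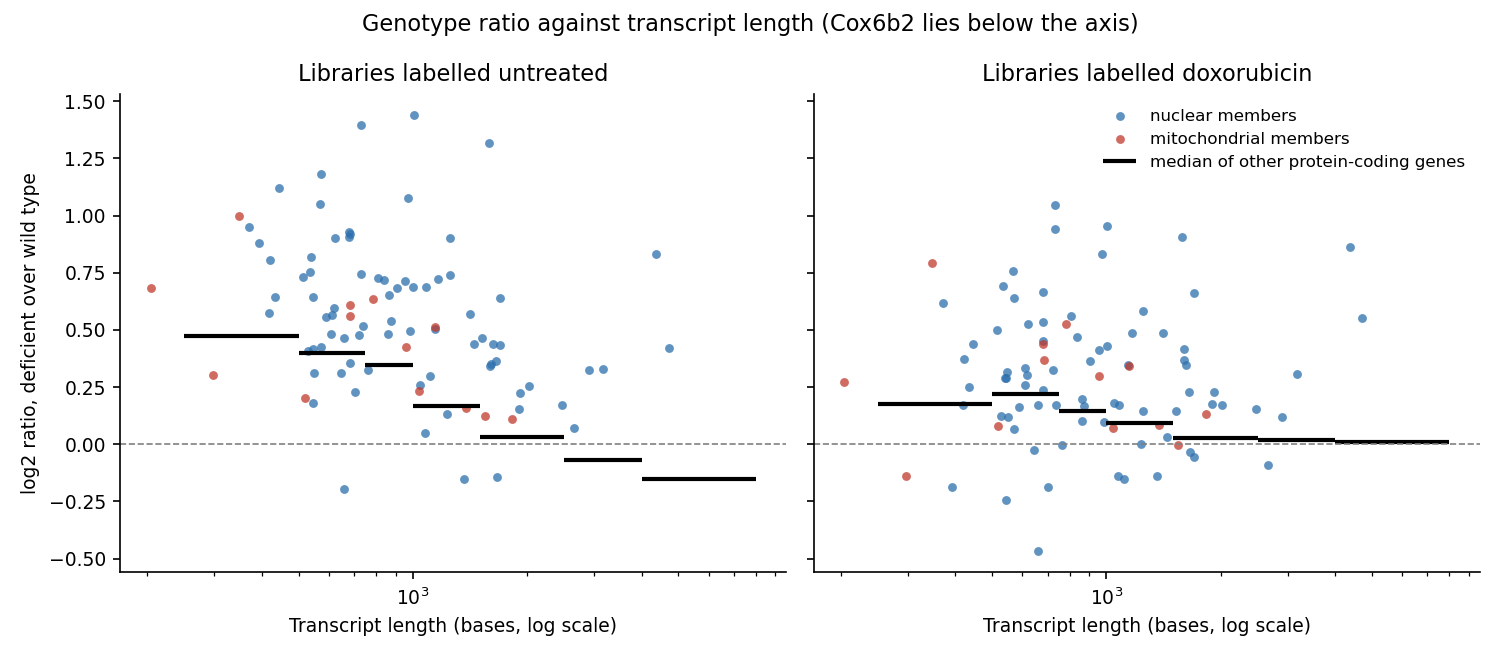
Log2 ratio of scaled CPM, deficient over wild type, against transcript length in bases on a log scale, for nuclear (blue) and mitochondrial (red) genes in the libraries labelled untreated (left) and doxorubicin (right); black bars are medians of other protein-coding genes per length bin. The black bars run from 0.47 in the shortest bin to -0.15 in the longest in the untreated pair and from 0.18 to 0.01 in the doxorubicin-labelled pair, and Cox6b2 is not drawn.

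Within the mitochondrial genome the 13 mRNAs were not shifted evenly. The genes from mt-Co2 to mt-Nd3 (chrM:7013-9806, GRCm38), which lie side by side on the heavy-strand transcript, had the 5 highest ratios in the untreated pair. mt-Co2, mt-Atp8, mt-Atp6, mt-Co3 and mt-Nd3 had log2 ratios of 0.56, 0.68, 0.61, 0.63 and 1.00 in the untreated pair and 0.37, 0.27, 0.44, 0.53 and 0.79 in the doxorubicin-labelled pair. In that pair mt-Atp8 was below mt-Cytb (0.34) and mt-Nd1 (0.30), which lie outside the stretch and had 0.51 and 0.43 in the untreated pair. The genes from mt-Nd4l to mt-Nd6 (chrM:9877-14070) had 0.30 (mt-Nd4l), 0.16 (mt-Nd4), 0.11 (mt-Nd5) and 0.20 (mt-Nd6) in the untreated pair. These lower ratios were -0.14, 0.09, 0.13 and 0.08 in the doxorubicin-labelled pair.

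mt-Nd3, a small membrane subunit of complex I, had 44.5, 48.7, 90.0 and 85.2 scaled CPM, so both deficient libraries stood well above both wild-type ones. Its ratio of counts was 2.02 (95% counting interval 1.86 to 2.20) and 1.75 (1.62 to 1.89) in the 2 pairs, and the additive edgeR estimate was 0.91 (SE 0.174, Benjamini-Hochberg adjusted p = 0.00122). mt-Co3 had 979, 1031, 1520 and 1485 scaled CPM, again without overlap, and an estimate of 0.58 (SE 0.0846, edgeR adjusted p = 1.18e-04). mt-Co1, the catalytic subunit that contains the oxygen-reducing site of complex IV, behaved otherwise. It had 2639, 2743, 2872 and 2740 scaled CPM, with overlapping genotypes, and an estimate of 0.06 (SE 0.0734, edgeR adjusted p = 0.623).

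The 6 mitochondrial genes called higher were mt-Nd1, mt-Nd3, mt-Cytb, mt-Co2, mt-Co3 and mt-Atp6. mt-Nd2, mt-Nd4, mt-Nd4l, mt-Nd5, mt-Nd6, mt-Co1 and mt-Atp8 did not pass. With length centring 3 calls remained, mt-Nd3, mt-Co3 and mt-Cytb, where 12.4% of all genes were called higher. On the TPM scale the ratios of mt-Nd4 and mt-Co1 were below 0 in both pairs, those of mt-Nd2 and mt-Nd4l in the doxorubicin-labelled pair, and that of mt-Nd5 in the untreated pair. Transcript length and ratio ran in opposite order among the 13 mRNAs in the untreated pair (Spearman -0.69 across genes that come from the same 2 libraries) and less so in the other pair (-0.20).

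The 2 mitochondrial ribosomal RNAs, from the start of the same heavy-strand transcription unit, had lower ratios than most of the mRNAs. mt-Rnr1 (12S) had log2 ratios of 0.11 and -0.40 in the 2 pairs, and mt-Rnr2 (16S) had -0.03 and -0.42. In the annotation 4 pairs of mitochondrial genes overlap (mt-Atp8 with mt-Atp6, mt-Atp6 with mt-Co3, mt-Nd4l with mt-Nd4, and mt-Nd5 with mt-Nd6 on the opposite strand). Reads in those stretches cannot be assigned by strand, and how shared reads were counted is not given in the sources used here. Among the 96 genes, 44 had fractional counts in at least 1 library, and the reason was not tested.

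**Figure D3:**
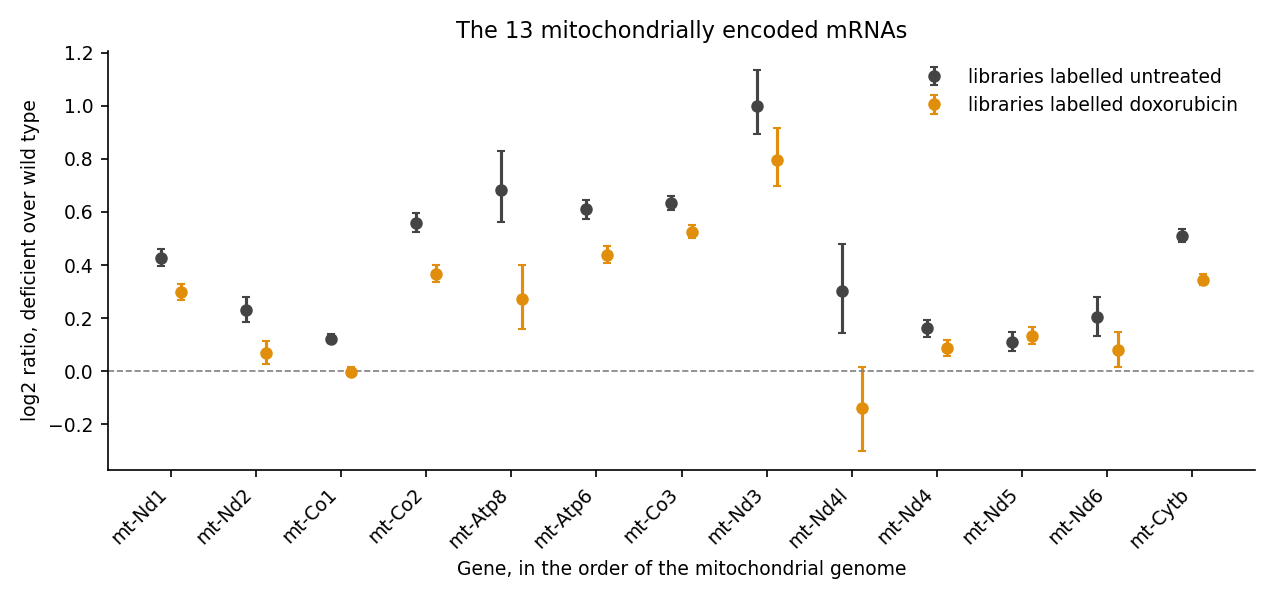
Log2 ratio of scaled CPM, deficient over wild type, for the 13 mitochondrial mRNAs in genome order, in the libraries labelled untreated (grey) and doxorubicin (orange); bars are exact 95% intervals for the ratio of counts. The points from mt-Co2 to mt-Nd3 lie higher than those from mt-Nd4l to mt-Nd6 and peak at mt-Nd3 (1.00 and 0.79).

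The ratio of summed mitochondrial to summed nuclear TPM was 0.553, 0.508, 0.521 and 0.517 over all genes. For complex I it was 0.513, 0.449, 0.423 and 0.420, highest in the untreated wild-type library. For complex IV it was 0.838, 0.738, 0.854 and 0.856, lowest in the doxorubicin-labelled wild-type library. The nuclear sum of complex IV includes Cox6b2, at 594, 635, 61.0 and 38.2 TPM, so this gene raises the ratio in the deficient libraries relative to wild type. The complex IV sums were 8150, 8298, 9658 and 9616 TPM for mitochondrial genes and 9720, 11242, 11305 and 11238 TPM for nuclear genes. With Cox6b2 taken from these nuclear sums, the rise in the untreated genotype pair turns into a fall. The rise in the doxorubicin-labelled pair stays a rise. Complex III had 0.482, 0.442, 0.436 and 0.453, and complex V had 0.402, 0.422, 0.426 and 0.414. Among these 5 ratios in the 2 genotype pairs, the largest log2 change was -0.28, for complex I in the untreated pair. The directions for all members (doxorubicin-labelled pair) for complexes III and IV (untreated pair) and for complex V (doxorubicin-labelled pair) turned when summed counts replaced summed TPM.

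**Figure D4:**
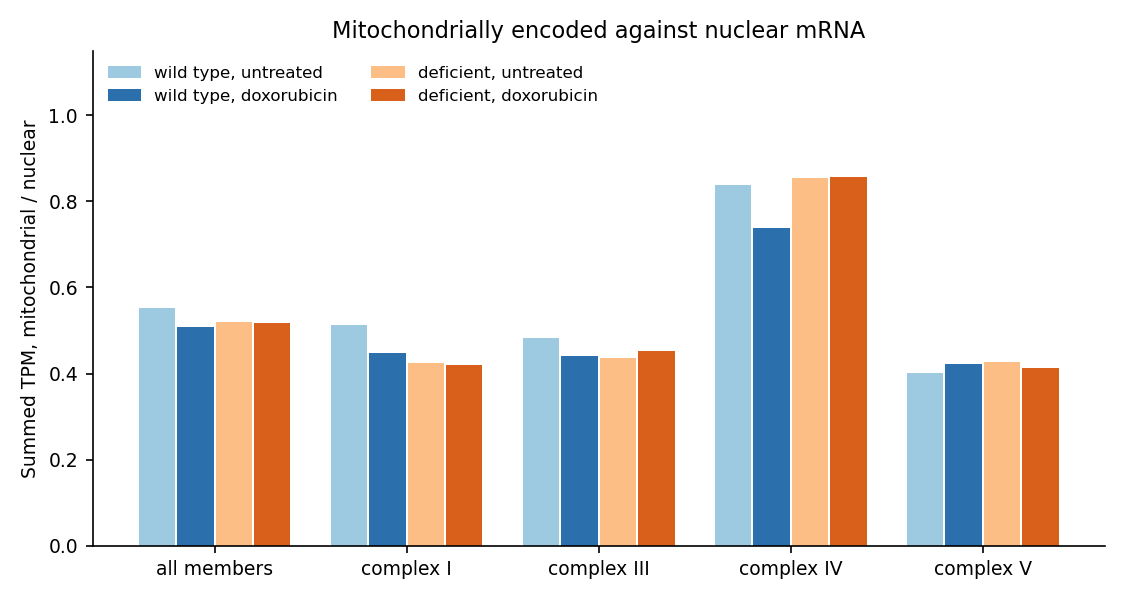
Bars give the summed TPM of mitochondrially encoded genes divided by that of nuclear genes, over all members and for each complex with both kinds, in each of the 4 libraries. Complex IV has the highest ratios (0.738 to 0.856) and complex V ratios from 0.402 to 0.426.

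The nuclear genes of complex I ran from -0.19 to 1.44 in the untreated pair. Their median log2 ratio was 0.55 in that pair and 0.19 in the doxorubicin-labelled pair. The additive model called 17 of 36 higher (12.6% of all genes) and 0 lower (10.6% of all genes). The highest was Ndufs8, an iron-sulfur subunit of the arm that passes electrons to quinone (ENSMUSG00000059734.7, chr19:3908863-3912774, 7 exons). It had 54.6, 74.7, 149.6 and 145.5 scaled CPM, so the deficient libraries lay above the wild-type ones without overlap. Its ratios of counts were 2.74 (2.55 to 2.95) and 1.95 (1.83 to 2.07), and the estimate was 1.21 (SE 0.158, edgeR adjusted p = 4.19e-05). Ndufb10, an accessory subunit of the membrane arm, had an estimate of 1.18 (edgeR adjusted p = 4.49e-05), and Ndufv3, an accessory subunit of the NADH-oxidising module, 1.13 (edgeR adjusted p = 1.35e-04).

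Other genes of the same modules had ratios near 0 or below. Ndufv1, which binds the flavin and oxidises NADH, had log2 ratios of -0.14 and -0.04, and Ndufs1, the largest iron-sulfur subunit, had 0.07 and -0.09 (-0.21 and -0.27 by TPM). Ndufb6, a membrane-arm accessory subunit, had 130, 173, 113 and 125 scaled CPM, lower in both deficient libraries, with an estimate of -0.33 that did not pass (edgeR adjusted p = 0.0975). It fell in the model with length centring (estimate -0.66, edgeR adjusted p = 0.00123), as did Ndufa11, a membrane-arm subunit whose estimate was -0.03 without centring and -0.36 with it (edgeR adjusted p = 0.0310).

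Complex II has no mitochondrial subunit. Its 4 genes had a median log2 ratio of 0.33 and 0.21 in the 2 pairs, and on the TPM scale 0.12 and -0.02, so the second value turned. Sdhb had 168, 189, 239 and 241 scaled CPM and rose (estimate 0.43, SE 0.120, edgeR adjusted p = 0.0170). Sdha (flavoprotein), Sdhc and Sdhd (membrane anchors) did not pass. With length centring Sdhb did not pass (estimate 0.28, edgeR adjusted p = 0.0643) and Sdhc did (0.35, edgeR adjusted p = 0.0462). The median of the 8 nuclear genes of complex III was 0.55 and 0.24, and 4 were called higher, against 12.6% of all genes. These were Uqcrb, Uqcr10, Uqcr11 and Uqcrh, small subunits around the catalytic core. With length centring Uqcrb and Uqcr11 passed, while Uqcr10 and Uqcrh had estimates of 0.13 and 0.15 and did not (edgeR adjusted p = 0.477 and 0.404). Uqcr11 had 90.1, 138.8, 197 and 188 scaled CPM and an estimate of 0.78 (edgeR adjusted p = 0.00183). The catalytic Rieske iron-sulfur protein gene Uqcrfs1 had ratios of -0.15 and -0.14 and the core proteins Uqcrc1 and Uqcrc2 did not pass.

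In complex V all 17 nuclear genes compared had a ratio above 0 in both pairs, although Atp5a1 was at -0.02 by TPM in the untreated pair. The medians were 0.57 and 0.42. The additive model called 13 of 17 higher (12.6% of all genes), and 9 of 17 with length centring (12.4% of all genes). Atp5g2, one of 3 genes for the c subunit of the rotor ring, had 37.3, 34.5, 63.1 and 72.3 scaled CPM and an estimate of 0.91 (SE 0.197, edgeR adjusted p = 0.00312). It was the only gene at least 2-fold higher in the doxorubicin-labelled pair, where 10.7% of all genes were. Atp5g1 and Atp5g3, which encode the same mature c subunit, rose by 0.49 and 0.40 (edgeR adjusted p = 0.00808 and 0.0122). With length centring Atp5g1 passed (0.56, edgeR adjusted p = 0.00175) and Atp5g3 did not (0.07, edgeR adjusted p = 0.620). This contrast depends on the annotated transcript length taken for each gene. Atp5h, a subunit of the peripheral stalk, rose by 0.73 (edgeR adjusted p = 5.85e-04). Atp5b, of the catalytic head, had 1479, 1573, 1730 and 1841 scaled CPM and rose by 0.23 (SE 0.0791, edgeR adjusted p = 0.0499). Its partner Atp5a1 had 0.16 and did not pass (edgeR adjusted p = 0.212).

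In complex IV the 12 nuclear genes compared had medians of 0.49 and 0.11. In the additive model 4 rose, against 12.6% of all genes, namely Cox6b1, Cox6c, Cox7b and Cox7c. With length centring only Cox7b of these passed. Cox5a, Cox5b, Cox6a1, Cox7a1, Cox7a2, Cox7a2l and Cox8a did not pass without centring. The exception was Cox6b2, the single subunit gene called lower. Cox6b2 encodes the form of subunit 6b known from testis, and Cox6b1 encodes the form found in most tissues; the subunit faces the intermembrane space and lies where the monomers of the dimeric enzyme meet.

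Cox6b2 (ENSMUSG00000051811.14, chr7:4751792-4753094, minus strand, 3 exons) had 2076, 2719, 213 and 161 counts, or 594, 635, 61.0 and 38.2 TPM. The wild-type libraries were thus about an order of magnitude above the deficient ones, with no overlap. Its ratios of counts were 0.119 (0.103 to 0.137) and 0.0685 (0.0581 to 0.0804), and the additive estimate was -3.46 (SE 0.227, edgeR adjusted p = 2.26e-08). It was called lower under every alternative of the model that was run. No exon of another annotated gene overlaps it. Cox6b1 had 1086, 1258, 1408 and 1460 TPM, so Cox6b1 was the more abundant of the pair in each library, and it rose by 0.45 (edgeR adjusted p = 0.00858), a call it lost with length centring. The nearby gene Kmt5c (chr7:4740115-4747514) had 251, 243, 141 and 200 counts (log2 ratios -0.57 and -0.06). Tmem238, which lies farther from Cox6b2 (chr7:4784557-4789656), had 342, 338, 79 and 62 counts (log2 ratios -1.70 and -1.93).

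The stretches upstream of the paralogues Cox6b2 and Cox6b1 are shown because the 2 genes differed in opposite directions. They are RefSeq promoter sequences (GRCm38.p6, minus strand, chr7:4753095-4753344 for Cox6b2 and chr7:30626152-30626364 for Cox6b1), 5′ to 3′, with CCAAT on either strand (read as ATTGG on the other) in capitals.
Cox6b2: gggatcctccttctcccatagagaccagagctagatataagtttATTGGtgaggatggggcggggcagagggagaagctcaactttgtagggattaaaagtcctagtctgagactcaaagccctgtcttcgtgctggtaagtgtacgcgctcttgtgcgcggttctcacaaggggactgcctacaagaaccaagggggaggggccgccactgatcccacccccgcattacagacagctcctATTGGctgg
Cox6b1: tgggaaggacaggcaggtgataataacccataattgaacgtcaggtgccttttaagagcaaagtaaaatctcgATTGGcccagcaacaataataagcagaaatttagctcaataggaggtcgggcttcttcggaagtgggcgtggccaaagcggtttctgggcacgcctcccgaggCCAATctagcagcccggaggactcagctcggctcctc
Both stretches hold 2 such matches. CCAAT was present within 250 bases upstream in 39.2% of the 16513 protein-coding genes with a RefSeq promoter and in 43.9% of the nuclear members matched. The 28 compared members with it had median log2 ratios of 0.64 and 0.32 in the 2 genotype pairs, and the 36 without it 0.52 and 0.18. The additive model called 19 of the 28 and 15 of the 36 higher, against 12.6% of all genes. Whether the motif has a part in these values was not tested.

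Of the other tissue-restricted forms, Cox6a2, Cox7b2, Ndufa4l2, Cox8b and Cox8c were near or below the limit of detection. Cox7a1 and Cox4i2 had a mean of at least 1 CPM. Cox4i2 is outside the naming rule and its values are not given here. Cox6a2, the muscle form of subunit 6a, had 0, 0, 5 and 5 counts, Cox7b2 had 0, 0, 6 and 2, and Ndufa4l2, known as a hypoxia-induced paralogue of Ndufa4, had 0, 18, 4 and 5. Cox8b and Cox8c had no count; 3 counts, the limit that a count of 0 allows, correspond to between 0.131 and 0.174 scaled CPM. Cox7a1, the heart and muscle form of subunit 7a, had 65, 123, 118 and 91 counts, with overlapping genotypes, and did not pass (edgeR adjusted p = 0.696).

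**Figure D5:**
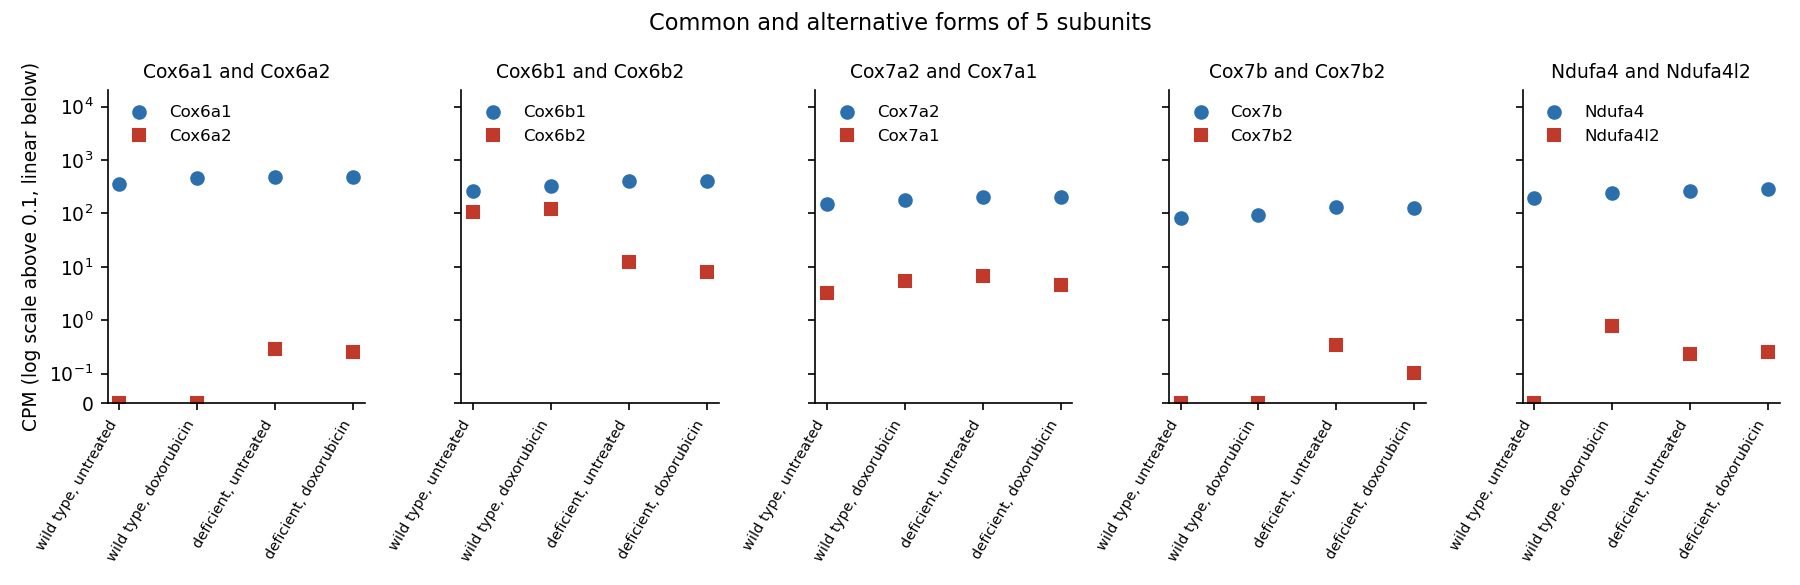
Scaled CPM (log scale above 0.1, linear below) in the 4 libraries for 5 pairs of a common (blue circles) and an alternative (red squares) form of a subunit. Cox6b2 is the only alternative form at a level near its common partner, at 104 and 119 CPM in the wild-type libraries and 12.4 and 8.14 CPM in the deficient ones.

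By median ratio, doxorubicin-labelled and untreated libraries differed less than the untreated genotype pair (0.52 for nuclear and 0.43 for mitochondrial genes). The nuclear median in wild type was as large as that of the doxorubicin-labelled genotype pair (0.26). In wild type 86 of 90 genes had a ratio above 0 (49.4% of all genes), with medians of 0.26 for nuclear and 0.15 for mitochondrial genes (all genes -0.00), and 1 gene, Uqcr11 at 0.62, was at least 1.5-fold higher, against 11.0% of all genes, and 0 were lower by that much, against 13.6%. The mitochondrial median was 0.06 on the TPM scale, and -0.01 with length centring. In the deficient pair 49 of 90 ratios were above 0 (53.8% of all genes), the medians were 0.01 and -0.03, and 0 genes were at least 1.5-fold higher or lower (6.59% and 6.75% of all genes). Each of these pairs shares its libraries with the genotype pairs. The additive edgeR model called 0 of 90 genes for the treatment label in either direction (0.0192% and 0.141% of all genes), with 1 gene, Ndufb9 (estimate 0.31), at an unadjusted p under 0.05 (5.54% of all genes), and DESeq2 and limma-voom called 0 as well.

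The sequences that follow show a motif of nuclear members. NRF-1 is a transcription factor known for activating nuclear genes of the respiratory chain through GC-rich sites. Of the 82 nuclear symbols, 66 had a promoter in the RefSeq table (GRCm38.p6). GCGCA followed by any base and GCGC, read on both strands within 250 bases upstream of the start, was present in 13 of the 66 (19.7%) and in 6.05% of 16513 protein-coding genes. The start is that of RefSeq, and bases that GENCODE annotates as exon were searched too. For several of the genes with the motif the match lay in or past such exon bases, and these are not among the stretches shown. These 5 stretches of 50 bases are shown as 3 from genes that rose (Atp5h, Ndufb4 and Ndufs5, the last not with length centring) and 2 from genes that did not pass, with the match in capitals.
Atp5h: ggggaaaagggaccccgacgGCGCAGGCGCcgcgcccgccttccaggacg
Ndufb4: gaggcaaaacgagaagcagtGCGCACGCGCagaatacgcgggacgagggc
Ndufs5: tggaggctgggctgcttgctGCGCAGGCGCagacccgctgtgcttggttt
Cox6a1: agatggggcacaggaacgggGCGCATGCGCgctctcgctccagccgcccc
Ndufa11: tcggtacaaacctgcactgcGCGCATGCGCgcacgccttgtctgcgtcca
They lie at chr11:115420031-115420080 (Atp5h, minus strand), chr16:37654530-37654579 (Ndufb4, minus), chr4:123718255-123718304 (Ndufs5, minus), chr5:115349091-115349140 (Cox6a1, minus) and chr17:56717682-56717731 (Ndufa11, plus). The 13 genes with the motif, all compared, had a median log2 ratio of 0.72 in the untreated pair and the 51 compared genes without it 0.57. In the doxorubicin-labelled pair these medians were 0.45 and 0.25. The additive model called 7 of the 13 and 27 of the 51 higher, against 12.6% of all genes. A match describes the letters and is not evidence of binding.

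Other genes of the pathway were counted from lists. Of 7 subunit or electron carrier genes that the naming rule leaves out, 3 rose (Atpif1, Cyc1 and Usmg5), against 12.6% of all genes, and 2 with length centring, which Atpif1 did not pass. The ubiquitous Cox4i1 had ratios of 0.22 and -0.18, cytochrome c (Cycs) 0.09 and -0.13, and the acyl carrier subunit Ndufab1 -0.13 and -0.46. Of the assembly factors, the counts that passed were 0 of 15 for complex I, 1 higher and 1 lower of 4 for complex II (0 and 1 with length centring), 1 higher of 6 for complex III, 4 higher and 1 lower of 21 for complex IV and 0 of 4 for complex V, where 12.6% of all genes were higher and 10.6% lower. Sdhaf1, an assembly factor for the iron-sulfur subunit of complex II, had 1120, 1264, 422 and 534 counts and fell by 1.11 (edgeR adjusted p = 0.00142). Cmc2, a complex IV assembly factor, rose by 1.40 (edgeR adjusted p = 7.15e-04).

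Of 36 genes for mitochondrial DNA maintenance, transcription and RNA handling, 2 rose (5.56%, against 12.6% of all genes) and 6 fell (16.7%, against 10.6%). With length centring 1 rose and 7 fell. Twnk, the mitochondrial DNA helicase, fell by 1.35, Top1mt by 1.14, Lrpprc, which stabilises mitochondrial mRNAs, by 0.94, and Tfb2m, a mitochondrial transcription factor, by 0.77 (edgeR adjusted p = 0.00406, 0.0300, 0.0154 and 0.0365). Of 14 nuclear regulators, 0 rose and 2 fell, a share of 14.3% against 10.6% of all genes, close to the background. Ppargc1a, the coactivator known for raising expression of subunit genes, had 1736, 1469, 763 and 649 counts and fell by 0.97 (edgeR adjusted p = 0.00117), and its partner receptor Esrra fell by 0.98 (edgeR adjusted p = 0.0164).

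Among 78 mitochondrial ribosomal protein genes, 12 rose (15.4%, against 12.6% of all genes) and 1 fell (1.28%, against 10.6%). With length centring 10 rose (12.8%, against 12.4%) and 3 fell (3.85%, against 11.0%), so the share that rose was near the background. Their median was 0.30 and 0.03 in the 2 pairs. Of 18 genes of the tricarboxylic acid cycle and pyruvate dehydrogenase, 4 rose (22.2%, against 12.6% of all genes) and 0 fell (10.6% of all genes), and with length centring 5 rose and 1 fell. Idh2, the mitochondrial NADP-linked isocitrate dehydrogenase, had 3111, 4013, 6450 and 8436 counts and rose by 1.27 (edgeR adjusted p = 6.69e-07). Of 8 carriers and energy-transfer genes, 2 rose and 1 fell (12.6% and 10.6% of all genes), and with length centring 1 rose and 1 fell. Slc25a4, the ADP/ATP carrier, rose by 0.48 (edgeR adjusted p = 0.00320), while the mitochondrial creatine kinase Ckmt1 had 1138, 1915, 4 and 46 counts and fell by 5.95 (edgeR adjusted p = 5.53e-08).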

How the data were processed

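RNA from 4 cultures, 1 per genotype and treatment label, was sequenced from SMART-Seq v4 libraries, per the labels' protocols. The deposited tables hold estimated counts and TPM per gene, made by the authors with DRAGEN on GRCm38, per the submitters' processing notes; for its version, annotation, filters and handling of shared reads the entry is: not given in the sources used here. Estimated counts, which the authors deposited with fractions, were rounded. The deposited TPM values were used for levels between genes. Of 55487 gene IDs, 55227 matched GENCODE vM21.

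Counts were scaled with edgeR 4.0.16 (TMM factors, R 4.3.3), and genes with a mean of at least 1 CPM were compared. Log2 ratios carry a pseudocount of 1 CPM, and exact binomial 95% intervals cover counting error. With 1 library per group, pairs have no test; an additive edgeR quasi-likelihood model of both labels over the 4 libraries (common dispersion 0.0863) had 1 residual degree of freedom and was called at a Benjamini-Hochberg adjusted p of 0.05 over all 15596 genes. The model was tested on simulated data. Alternatives were DESeq2 1.42.0, limma-voom 3.58.1, other scalings, pseudocounts and minimums, TPM, length centring and leaving out each library. Promoters came from RefSeq (GRCm38.p6), trimmed where GENCODE annotates an exon of the gene.

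Genes were named by rule: all mitochondrial members, the extremes and every called nuclear member, the most abundant member of each complex, tissue isoforms, and up to 4 genes per list with the largest ratios. Cycs, Ndufab1, Tfb2m, Top1mt, Tmem238, Kmt5c, the mitochondrial ribosomal RNAs and members named as not passing were chosen after their values were seen. Members and lists were chosen with earlier results of these data known.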

Additional observations from a re-analysis of the deposited data

Results flagged for a closer look

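Members whose doxorubicin ratio had opposite signs in the 2 genotypes, each beyond its counting interval, with a difference of at least 1.5-fold, were Cox6b2 and Cox7a1. Cox6b2 had a log2 ratio of doxorubicin over untreated of 0.19 in the wild-type libraries and -0.55 in the deficient ones, a difference of -0.74. Cox7a1 had 0.58 and -0.49, a difference of -1.07, from between 65 and 123 counts per library. With 1 library per combination, neither difference was tested.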

How the results depend on the processing

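No paired analysis was possible because each group has 1 library and the number in the titles follows the treatment label. When a library is left out, the fit holds 1 label only, and the lone library of its group is assumed to vary like the others. For the genotype label, members called higher numbered 6 to 60 and members called lower 1 to 2 when each library was left out; length centring gave 28 and 3. The remaining model alternatives stayed within 1.5 times of the 45 and 1 calls, and 0 calls for the treatment label held in all. With length centring the medians of nuclear and mitochondrial members were 0.32 and 0.0898 (untreated genotype pair), 0.11 and 0.11 (doxorubicin-labelled genotype pair), 0.12 and -0.0111 (doxorubicin over untreated, wild type) and -0.11 and 0.0344 (difference of the doxorubicin responses), so the last 2 mitochondrial medians turned. Counts at least 1.5-fold higher and lower became 10 and 2 (untreated genotype pair), 8 and 2 (doxorubicin-labelled), and 0 higher for doxorubicin in wild type. With deposited TPM the untreated genotype pair gave 0.34 and 0.22 with 20 genes higher, the doxorubicin-labelled pair 0.17 for nuclear members, and the mitochondrial doxorubicin median was 0.0603 in wild type, with a difference of -0.0660. TPM also gave 0 genes at least 1.5-fold higher for doxorubicin in wild type and 1 lower in deficient libraries, or 2 lower when centred on all genes. That wild-type count was 2 with DESeq2 size factors, a pseudocount of 0.5 CPM or no minimum. Scaling by total counts gave 0.38 for mitochondrial members in the untreated genotype pair. With counts in place of TPM, the log2 change of the mitochondrial to nuclear ratio was -0.10 and -0.0181 (all members; untreated and doxorubicin-labelled pair), -0.30 (complex I, untreated), 0.0762 and 0.12 (complex III), -0.0931 and 0.11 (complex IV), and 0.20 and 0.0910 (complex V). Without mt-Atp8 and mt-Nd4l it was -0.11 and 0.0356 for all members, -0.0645 for complex I (doxorubicin-labelled) and 0.0466 and 0.0331 for complex V, and without mt-Nd6 -0.25 for complex I (untreated). The cause of these changes was not tested. Length centring and leaving out libraries were chosen after seeing the data.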
